A study of Mus musculus with 2 samples.

Results

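The cells described here are the mesenchymal cells of the mouse genital tubercle that carried transcripts of 3 or more of Rprm, Pcdh10, Spock3, Irx5 and Matn2. A member was a barcode with at least 1 UMI (unique molecular identifier, 1 counted RNA molecule) in 3 or more of these 5 genes. It also had 4000 or more UMIs, 500 or more genes, at most 10% mitochondrial UMIs and no UMI of Epcam, Cdh5, Sox10 or Ptprc, which mark epithelium, endothelium, glia and immune cells. Of 25346 barcodes that met these limits, 7020 (27.7%) were members. The reference was the 5876 barcodes of the same libraries in which none of the 5 genes was detected.

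The series measured single-cell RNA of wild-type C57BL/6 genital tubercles at embryonic day 14.5 (Theiler stage 22), with 1 male and 1 female library. The labels name no transgene and no treatment. Each library pooled the tubercles of 3 embryos taken from 2 litters and sexed by genotyping, so each sex has 1 sample and the spread between embryos was not measured. Every interval below is a 95% interval that covers counting error only, and no p-value is given for any comparison.

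The genital tubercle is the outgrowth that becomes the penis or the clitoris. Its mesenchyme surrounds the urethral epithelium, which secretes Sonic hedgehog, and it exchanges Wnt, FGF and BMP signals with the surface and urethral epithelia while it is patterned along its axes. Iroquois genes encode homeodomain transcription factors that set regional identity and lie in clusters, with Irx3, Irx5 and Irx6 in one and Irx1, Irx2 and Irx4 in the other. Of the other genes of the rule, Rprm encodes reprimo, known as a p53-responsive inhibitor of the cell cycle at the G2 stage. Pcdh10 encodes a non-clustered protocadherin, a homophilic adhesion molecule. Spock3 encodes a testican, a secreted proteoglycan, and Matn2 encodes matrilin-2, an adaptor protein of the extracellular matrix.

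In the GENCODE M21 annotation of the mm10 genome (mouse build GRCm38), Rprm lies at chr2:54084093-54085552 on the minus strand. Pcdh10 lies at chr3:45378398-45435623 and Matn2 at chr15:34306677-34436273, both on the plus strand. Spock3 (chr8:62951009-63357103) and Irx5 (chr8:92357625-92376286) share chromosome 8 and the plus strand. Irx3, which no rule used and which was among the genes most enriched in members, lies at chr8:91798525-91802067 on the minus strand.

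The promoters of Rprm, of Irx3 and of Fto are shown because Rprm was the most often detected of the 5 genes and because Irx3 and Fto lie beside Irx5 and were higher in members. Each is a RefSeq window of 300 bases on GRCm38.p6, from 250 bases before the annotated transcription start to 50 bases from it, written 5′ to 3′ on the gene's strand. Capitals mark CG dinucleotides, the sites of CpG methylation. The windows are chr2:54085503-54085802 (minus strand) for Rprm, chr8:91801605-91801904 (minus strand) for Irx3 and chr8:91313275-91313574 (plus strand) for Fto.
Rprm: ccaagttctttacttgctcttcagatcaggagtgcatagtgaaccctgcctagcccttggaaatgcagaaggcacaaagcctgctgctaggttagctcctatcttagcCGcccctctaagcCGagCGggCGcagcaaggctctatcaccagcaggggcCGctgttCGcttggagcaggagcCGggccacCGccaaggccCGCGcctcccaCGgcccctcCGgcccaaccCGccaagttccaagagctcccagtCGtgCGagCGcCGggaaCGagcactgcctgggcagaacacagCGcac
Irx3: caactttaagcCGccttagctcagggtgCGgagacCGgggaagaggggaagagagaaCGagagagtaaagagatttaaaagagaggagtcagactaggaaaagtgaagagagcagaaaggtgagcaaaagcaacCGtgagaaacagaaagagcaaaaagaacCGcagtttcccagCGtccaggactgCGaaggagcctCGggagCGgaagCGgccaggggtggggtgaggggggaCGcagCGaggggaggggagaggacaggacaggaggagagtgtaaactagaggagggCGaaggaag
Fto: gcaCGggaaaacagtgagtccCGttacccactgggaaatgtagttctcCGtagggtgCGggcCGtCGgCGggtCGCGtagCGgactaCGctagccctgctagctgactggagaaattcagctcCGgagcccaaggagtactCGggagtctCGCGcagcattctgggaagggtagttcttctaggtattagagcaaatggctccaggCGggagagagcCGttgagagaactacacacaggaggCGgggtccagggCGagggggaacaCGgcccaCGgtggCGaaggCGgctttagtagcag
The Rprm window held 19 CG dinucleotides, the Irx3 window 14 and the Fto window 23, against a median of 7 and a 95th percentile of 37 over 27025 RefSeq promoter windows of the same length. Their G+C contents were 63.3%, 56.0% and 60.7%. The E-box motif CANNTG, the core letters that basic helix-loop-helix proteins such as Twist recognise, was searched on both strands. It had 0 matches in the Rprm and Irx3 windows and 1 in the Fto window, and 72.1% of all windows held a match. The homeobox core TAATTA, also searched on both strands, had no match in the 3 windows and a match in 5.31% of all windows. The palindrome ACANNTGT of Iroquois sites, whose letters contain CANNTG, had no match in the 3 windows and a match in 7.36% of all windows. The RefSeq start of Irx3 lies 413 bases from the outermost GENCODE start. Rpgrip1l starts head to head with Fto, 303 bases away on the opposite strand, so their windows share 198 bases.

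The libraries held 130105692 UMIs in the male library and 144515562 in the female over 31053 genes, and 13077 and 13942 barcodes met the limits on UMIs, genes and mitochondrial share. Of these, 885 and 788 carried a UMI of an exclusion gene and were left out. Members had 6961 (male) and 7469 (female) UMIs at the median, against 5274.5 and 5452 in the reference. The rule favours deep cells, since a cell with more UMIs has more chances to show 3 genes. Median genes per cell were 2603.5 and 2754.5 in members against 2147 and 2207.5 in the reference, but 1803 and 1839 against 1785 and 1821 after each cell was thinned to 4000 UMIs. Mitochondrial shares were 6.48% and 6.49% in members and 6.82% in the reference of both libraries. Of the kept barcodes, 47 had the same sequence in both libraries, and 5 of these were members in both.

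Members made up 3022 of 12192 kept barcodes in the male library (24.8%, exact Clopper-Pearson interval 24.0 to 25.6) and 3998 of 13154 in the female library (30.4%, 29.6 to 31.2). The share was higher in the female library, whose kept cells were also deeper (medians of 6186.5 against 5868.5 UMIs). After thinning each barcode to 4000 UMIs before the rule was applied, the shares were 14.4% and 17.9%, and the female share was again the higher. With 1 library per sex the difference cannot be told apart from a difference between libraries.

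The members are a range of the number of markers per cell, cut at 3. In the male library 3058 cells had 0 markers, 3413 had 1, 2699 had 2, 1845 had 3, 953 had 4 and 224 had 5. In the female library the numbers were 2818, 3398, 2940, 2267, 1350 and 381. Just outside the rule, the cells with 2 markers were 22.1% and 22.4% of kept cells, and just inside it the cells with 3 markers were 15.1% and 17.2%. Cells with 5 markers were the deepest, with medians of 7933 (male) and 9685 (female) UMIs.

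**Figure D1:**
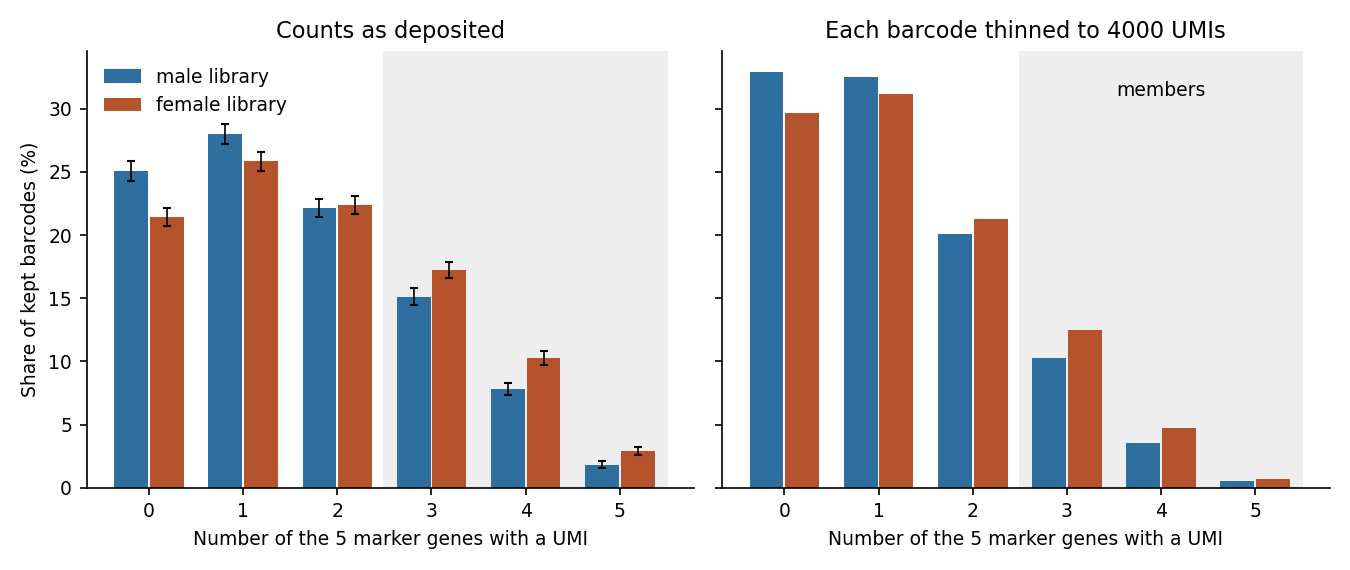
Number of the 5 rule genes detected per kept barcode (horizontal axis) against the share of kept barcodes in percent (vertical axis), for the male and the female library, as counted (left, with exact 95% intervals as bars) and after thinning each barcode to 4000 UMIs (right); the members lie on the shaded ground. As counted, the shares decline from 28.0% and 25.8% at 1 marker to 1.84% and 2.9% at 5, and the female library has the larger share at 3, 4 and 5 markers.

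The rule chose the levels of the 5 genes in members, so these are a description. Rprm was detected in 87.8% of male and 91.0% of female members, Irx5 in 82.5% and 85.3%, and Pcdh10 in 82.2% and 86.0%. Spock3 was detected in 55.6% and 56.3%, and Matn2, the least frequent, in 38.3% and 34.2%. Summed over members, Rprm stood at 523 (male) and 537 (female) CPM (UMIs per 1000000 of the summed UMIs), against 280 and 315 over all kept cells. Irx5 stood at 265 and 291 CPM, Pcdh10 at 235 and 251, Spock3 at 117 and 112, and Matn2 at 59.0 and 45.5. The commonest combination was Rprm with Pcdh10 and Irx5 alone (22.3% and 25.5% of members). The same 3 genes with Spock3 made up 17.8% and 21.4%, and all 5 genes were found together in 7.41% and 9.53%. A typical member was therefore a cell with Rprm, Pcdh10 and Irx5, to which Spock3 or Matn2 was added in some cells.

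Free RNA in the droplets carried the rule genes too. Barcodes with 10 to 100 UMIs, which hold mostly such RNA, had Rprm at 187 and 192 CPM, Pcdh10 at 101 and 87.8, Irx5 at 72.9 and 108, Spock3 at 46.8 and 49.9, and Matn2 at 16.3 and 18.0. In endothelial barcodes (3 or more Cdh5 UMIs, 160 male and 105 female, with medians of 15598 and 14042 UMIs), Rprm was found in 14.4% and 20% and Irx5 in 15.6% and 22.9%. There 5.0% and 10.5% met the limit of 3 markers. Epithelial barcodes (3 or more Epcam UMIs, 104 and 61, with medians of 12344.5 and 13963 UMIs) met it in 13.5% and 26.2%. Irx5 was found in 60.6% and 62.3% of them. Barcodes with over 20% haemoglobin UMIs (129 and 254, with medians of 8399 and 8800 UMIs) had Rprm in 39.5% and 38.6% and met it in 16.3% and 16.5%. Members were 24.8% and 30.4% of kept cells, whose median depths were 5868.5 and 6186.5 UMIs. Of these classes the female epithelial barcodes came nearest to that share, at a greater median depth than the kept cells.

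The label of mesenchyme was checked against 12 mesenchymal markers, all of which were measured. Their summed level was 5494 CPM in male and 5571 CPM in female members, against 4080 and 3641 CPM in the reference. Of the 12, 9 were higher and 3 lower than the reference in both libraries. Only Dcn, Twist1 and Twist2 were higher by 1.5-fold or more with intervals clear of 0 in both (2.97% of all genes tested). Twist1 went from 521 CPM in cells with 0 markers to 1457 CPM in cells with 5 (male) and from 558 to 1638 CPM (female). Summed levels in members were 15.7 and 13.2 CPM for 10 epithelial genes, 10.1 and 8.04 CPM for 7 endothelial genes, 7.64 and 7.22 CPM for 6 glial genes and 5.56 and 3.54 CPM for 7 immune genes. The exclusion genes of the rule mark these 4 classes. Of classes that no exclusion gene marks, the sum of 7 neuronal genes was higher in members, at 51.8 and 61.0 CPM against 24.2 and 21.4 CPM in the reference. Smooth muscle genes summed to 68.7 and 40.2 CPM against 161 and 59.9 CPM, cartilage genes to 73.4 and 74.2 CPM against 124 and 125 CPM, and pericyte genes to 26.3 and 25.1 CPM against 29.9 and 26.5 CPM. Skeletal muscle genes summed to 25.4 CPM against 6.34 CPM in the male and 25.8 against 28.2 CPM in the female library. Summed erythroid transcripts were 3723 and 5871 CPM in members and 14004.5 and 24333 CPM in the reference. Barcodes carrying counts of another class had over 2% haemoglobin, or 3 or more UMIs of the immune, skeletal muscle or endothelial genes. Neuronal genes were not part of this limit. Such barcodes were 44 (1.46%) and 73 (1.83%) of members and 85 (2.78%) and 123 (4.36%) of the reference. Without them the erythroid sum was 463 and 506 CPM in members and 597 and 709 CPM in the reference. The skeletal muscle sum was then 4.79 CPM in male and 5.30 CPM in female members, slightly below the reference of each library. The male excess of skeletal muscle transcripts in members was thus not seen without these barcodes.

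Each of the 5 genes was also higher in cells chosen by the other 4. The members were chosen with earlier results of these data known, so these ratios are a description and not independent support. For each gene, cells with 2 or more of the other 4 genes were set against cells with none of those 4. Rprm stood at 412 against 160 CPM in the male and 455 against 163 CPM in the female library, log2 ratios of 1.36 (1.31 to 1.41) and 1.48 (1.44 to 1.53). The ratios were 1.95 and 2.07 for Pcdh10, 2.06 and 2.26 for Spock3, and 1.97 and 1.7 for Irx5. Matn2 was the least linked of the 5, at 0.93 (0.77 to 1.10) and 0.78 (0.61 to 0.95). After thinning to 4000 UMIs, Pcdh10 was detected in 44.8% against 16.4% of male cells and in 51.0% against 16.1% of female cells. At that depth the detection of the other 4 genes was also higher in both libraries, from Rprm (61.4% against 31.6% and 67.9% against 33.0%) to Matn2 (15% against 7.16% and 12.8% against 6.85%).

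Members also lay near each other in expression when the 5 genes were left out. Among the 15 nearest neighbours of a member, placed by 30 principal components of cells thinned to 4000 UMIs, 49.0% (male) and 56.0% (female) were members. Around reference cells the share was 6.05% and 7.36%, and members were 24.8% and 30.4% of all cells placed. The share was higher with each added marker, from 6.05% at 0 to 64.1% at 5 in the male library and from 7.36% to 71.9% in the female library. Members were the majority of the neighbours for 49.6% and 59.5% of members, and the others lay mostly among cells outside the rule.

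Members were then compared with the reference gene by gene, on CPM of the UMIs summed within each library. A gene was called when it differed by 1.5-fold or more, with an interval clear of 0 on the log2 scale and in the same direction, in both libraries. Of 11182 genes with at least 100 UMIs in each library, 332 (2.97%) were higher and 433 (3.87%) lower in members. The median log2 ratio of all of them was near 0, at 0.0072 in the male library and 0.027 in the female. These counts describe cells that were sorted by their own transcripts. With the reference weighted to the members' depth, 315 genes were higher and 372 lower, and against all kept cells outside the rule, 123 were higher and 330 lower.

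Of the 12 named genes highest in members, 4 encode transcription factors. Irx3, the Iroquois gene next to Irx5, stood at 63.0 CPM in male members against 6.34 in the reference and at 77.6 against 7.20 CPM in the female library. Its log2 ratios were 3.31 (3.04 to 3.60) and 3.43 (3.18 to 3.7), the largest of the leading genes by the ratio nearer 0 of the pair of libraries. Shox2, a homeobox factor of proximal limb growth, stood at 141 against 17.4 CPM and 180 against 18.6 CPM, log2 ratios of 3.01 and 3.28. Twist2, a basic helix-loop-helix factor of dermal and other mesenchyme, stood at 266 against 60.1 CPM and 256 against 57.7 CPM, a log2 ratio of 2.15 in both libraries. Sim1, another factor of the helix-loop-helix class, had log2 ratios of 3.46 in the male library and 2.40 in the female, where its reference level was 8.26 CPM against 2.82 CPM in the male.

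The other genes of the highest 12 encode signalling, membrane and noncoding products. Ezr, for ezrin, which links membrane proteins to actin, stood at 99.2 against 10.2 CPM (male) and 117 against 11.5 CPM (female), log2 ratios of 3.28 and 3.35. Rmst, a long noncoding RNA, stood at 28.4 against 3.36 CPM and 28.6 against 2.19 CPM. The agouti gene (symbol a), which encodes a secreted antagonist of melanocortin receptors, stood at 136 against 24.7 CPM and 122 against 23.4 CPM. Agtr2, the type 2 angiotensin receptor, had a log2 ratio of 2.27 in both libraries. The others were Kcna4, a voltage-gated potassium channel (2.40 and 2.69), Gria2, a glutamate receptor subunit (1.92 and 2.36), Rgs17, a regulator of G protein signalling (2.16 and 1.97), and Sostdc1, a secreted antagonist of BMP and Wnt signals (1.85 and 2.23).

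Of the 12 named genes lowest in members, 2 encode transcription factors and 3 encode embryonic globins. Foxf1, a forkhead target of Hedgehog signalling, stood at 14.8 against 96.9 CPM in the male and 15.9 against 108 CPM in the female library, log2 ratios of -2.71 (-2.88 to -2.55) and -2.77 (-2.9 to -2.63). Aldh1a2, which makes retinoic acid, stood at 6.12 against 42.0 CPM and 5.62 against 37.2 CPM. Tcf21, a helix-loop-helix factor of visceral and other mesenchyme, stood at 5.48 against 29.8 CPM and 3.9 against 23.3 CPM. Cldn11, a tight junction claudin, had log2 ratios of -2.79 and -2.76. Nefm, the medium neurofilament subunit, stood at 11.5 against 65.9 CPM and 18.3 against 80.0 CPM. Fam19a1, Tmem30b and Tceal6 had log2 ratios between -2.38 and -2.08, and Car2, a carbonic anhydrase of red cells and other tissues, -2.57 and -2.55.

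The remaining 3 of the 12 lowest genes were the embryonic globins Hba-x, Hbb-bh1 and Hbb-y, with log2 ratios between -2.88 and -2.08. Without the barcodes that carried counts of another class, the ratio nearer 0 of the pair of libraries was -0.39 for Hba-x, -0.23 for Hbb-bh1 and -0.44 for Hbb-y, which no longer met the 1.5-fold limit. The erythroid sums given above moved with these genes.

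**Figure D2:**
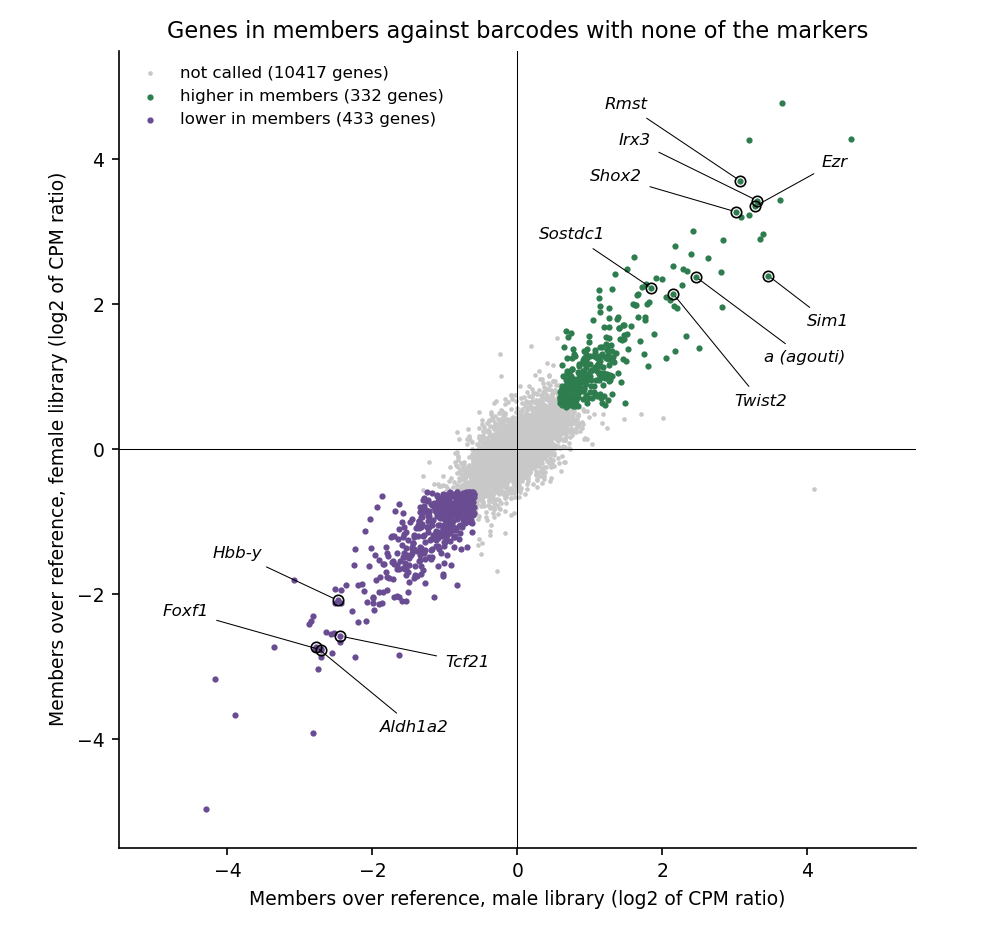
Log2 ratio of CPM, members over reference, in the male (horizontal axis) and the female library (vertical axis), 1 point per gene with at least 100 UMIs in each library. The 332 genes higher in both libraries lie at the upper right, with Irx3, Ezr and Shox2 past 3 on both axes, and the 433 lower genes lie at the lower left, with Foxf1 and Aldh1a2 below -2.7.

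Levels of several genes followed the number of rule genes detected, including in cells that were neither members nor reference. Irx3 went from 6.34 CPM in cells with 0 markers to 74.8 CPM in cells with 5 in the male library and from 7.20 to 106 CPM in the female library. Shox2 went from 17.4 to 198 CPM and from 18.6 to 245 CPM, and Twist2 from 60.1 to 306 CPM and from 57.7 to 323 CPM. Foxf1 went the other way, from 96.9 to 15.7 CPM and from 108 to 13.6 CPM, as did Aldh1a2, from 42.0 to 3.34 CPM and from 37.2 to 3.85 CPM. In the male library neither fell at each step, since Foxf1 stood at 12 CPM at 4 markers, and Aldh1a2 at 5.88 CPM at 3 and 7.28 CPM at 4. Msx2, a homeobox factor of distal mesenchyme, did not follow the number in one direction. It stood at 76.2 CPM at 0 markers, 153 at 1 and 75.8 at 5 in the male library, and at 83.3, 126 and 61.2 CPM in the female library. These levels are a description, since the number of markers detected moved with depth as well.

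**Figure D3:**
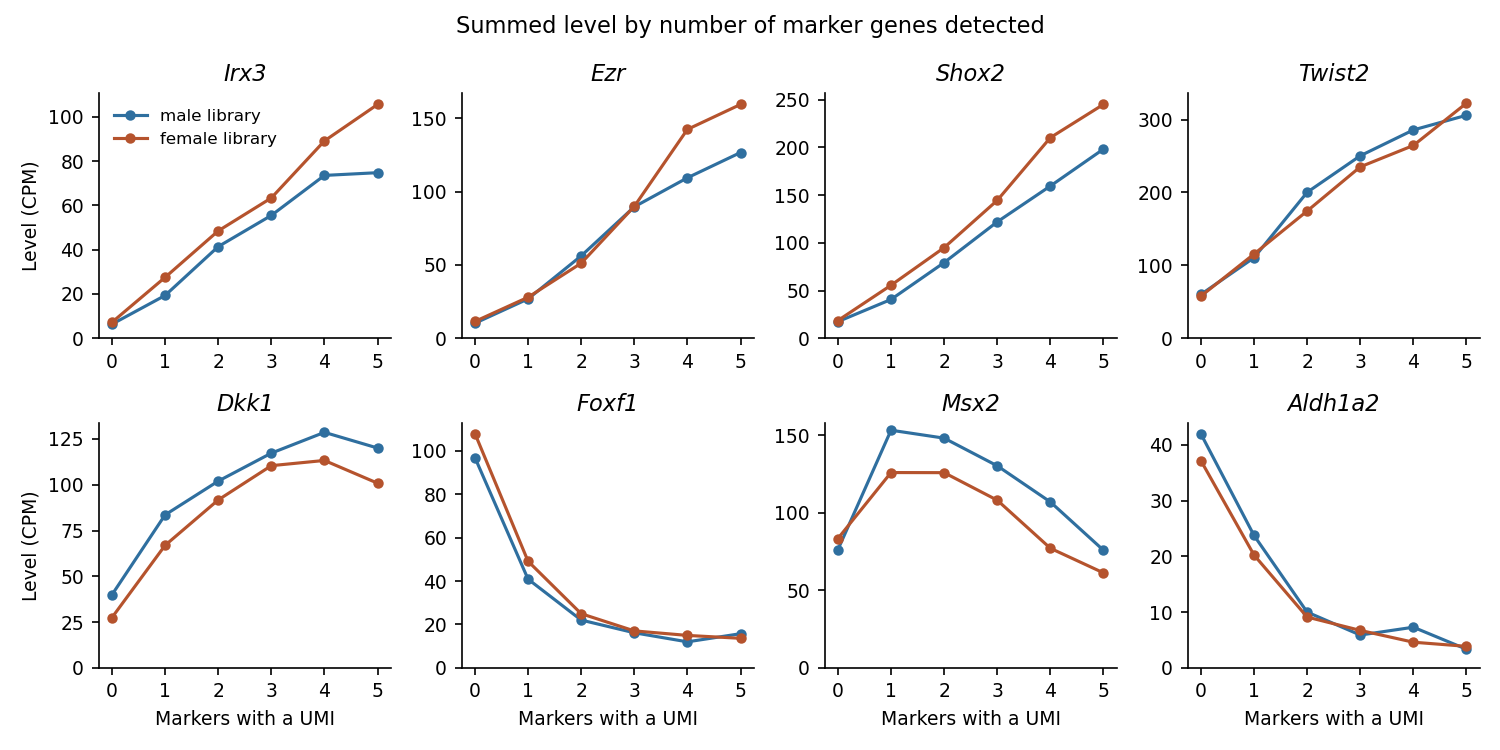
CPM of 8 genes (vertical axes, 1 panel each) in cells with 0 to 5 of the rule genes (horizontal axes), for the male and the female library. Irx3, Ezr, Shox2 and Twist2 climb with the number of markers, Foxf1 and Aldh1a2 decline, Msx2 is highest at 1 or 2 markers, and Dkk1 climbs to 129 and 113 CPM at 4 markers and stands at 120 and 101 CPM at 5.

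Among lists of transcription factors, calls of T-box genes were in one direction and those of forkhead genes in the other. Of 6 T-box genes measured, 4 were called higher and 0 lower, where 2.97% were higher and 3.87% lower over all genes tested, with median log2 ratios of 0.83 (male) and 0.85 (female) beside medians of 0.0072 and 0.027 over all genes. Tbx15 stood at 12.1 against 2.39 CPM and 19.5 against 3.54 CPM, log2 ratios of 2.34 and 2.46. Tbx18 had 1.27 and 1.69, Tbx4, a hindlimb and tubercle factor, 1.01 in both, and Tbx2 0.65 and 0.69. Against all kept cells outside the rule, 0 of the T-box genes were called, in a list too small for 0 calls to be read against all genes.

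Of 13 forkhead genes measured, 0 were higher and 6 lower in members (2.97% and 3.87% over all genes), with medians of -0.65 and -0.78. Beside Foxf1, Foxl1 stood at 2.32 against 15.1 CPM (male) and 1.91 against 12.9 CPM (female). Foxl2 had log2 ratios of -2.56 and -2.81 and Foxd2 -1.04 and -1.19, and Foxc1 and Foxp2 were also lower. With at most 5% mitochondrial UMIs, where 4 forkhead genes had enough UMIs, Foxf2, Foxp1 and Foxq1 were higher and 0 were lower. That setting left 182 and 199 reference cells, of which 28.6% and 47.7% carried counts of another class, and their summed erythroid levels were 183426 and 269445 CPM.

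Among the sine oculis, eyes absent, Pax and paired-type factors the calls were split, with 4 of 16 higher and 5 lower (2.97% and 3.87% over all genes). Shox2 was joined by Pax3, a factor of dorsal neural tube, crest and dermomyotome, at 6.24 against 1.41 CPM and 8.75 against 1.52 CPM. Alx1 (log2 ratios of 1.51 and 1.60) and Alx4 (1.27 and 1.17), paired-type factors of craniofacial and limb mesenchyme, were the other 2. The lower genes included Six2, Six4, Eya1 (-1.10 and -1.22) and Eya4, members of a network known from branchial, renal and genital mesenchyme. Of 30 other mesenchymal factors, 6 were higher and 8 lower. Osr2, an odd-skipped factor, stood at 296 against 137 CPM and 301 against 134 CPM. En1, the engrailed homeobox factor, stood at 4.72 against 21.6 CPM and 6.46 against 23.6 CPM, and Ebf2 had log2 ratios of -2.84 and -2.37. The posterior Hox genes, which position the tubercle along the body axis, were near the background, with Hoxc11 (0.62 and 0.77) higher and Hoxa11 (-0.72 and -0.61) lower of 12.

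Wnt pathway genes were called in both directions. Of 23 measured, 8 were higher and 4 lower (2.97% and 3.87% over all genes), with medians of 0.01 and 0.27. Dkk1, a secreted Wnt antagonist that is itself a Wnt target, stood at 121 against 39.9 CPM in the male and 110 against 27.4 CPM in the female library, log2 ratios of 1.60 (1.49 to 1.72) and 2.01 (1.87 to 2.15). Axin2, a feedback inhibitor and a common readout of Wnt signalling through beta-catenin, stood at 82.7 against 37.7 CPM and 98.3 against 44.1 CPM. The ligand Wnt11 had log2 ratios of 1.39 and 1.82. Other feedback and inhibitor genes were higher as well, namely Wif1 (1.01 and 1.17), Nkd1 (0.93 and 0.98) and Nkd2 (0.75 and 0.71), and so were the nuclear factors Lef1 (0.69 in both) and Tcf7 (0.77 and 0.72). The lower genes were the secreted antagonists Sfrp1 (-1.12 and -0.86) and Sfrp2 (-1.0 and -1.03), the nuclear factor Tcf7l2 and the ligand Wnt6 (-1.34 and -1.53). Against all kept cells outside the rule, Axin2, Dkk1 and Wnt11 were higher, and Sfrp1, Wnt6 and Rspo2 were lower. The numbers called over all genes in that comparison are given above.

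Of 15 FGF pathway genes, 6 were higher and 1 lower (2.97% and 3.87% over all genes), with medians of 0.32 and 0.47. Among ligands, Fgf9 stood at 23.4 against 8.46 CPM and 22.9 against 7.98 CPM, Fgf18 was higher (1.14 and 0.77), and Fgf10, a ligand made by mesenchyme for epithelium, was lower (-0.66 and -0.64). The transcriptional targets Etv4 (1.31 and 1.27) and Etv5 (0.91 and 0.84) and the feedback inhibitors Dusp6 (0.82 and 0.87) and Spry4 (0.96 and 0.63) were higher. Against all kept cells outside the rule, 0 of 17 FGF pathway genes were higher, and Fgf7 was lower. A list of 17 is too small for 0 calls to be read against all genes.

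Of 14 Hedgehog pathway genes, 2 were higher and 4 lower in members, with medians of 0.12 and 0.09; over all genes tested, 2.97% were higher and 3.87% lower. Among the 14, 8 had ratios above 0 in both libraries and 5 below. Ptch1, the receptor and a direct target of the pathway, stood at 129 against 239 CPM in the male and 130 against 276 CPM in the female library, log2 ratios of -0.89 (-0.96 to -0.83) and -1.08 (-1.14 to -1.03). Hhip, a decoy receptor that is also a target, had -1.43 and -1.78, and Foxf1 and Foxl1 are given above. The higher genes were Gli3, the main repressor of the pathway (0.73 and 0.74), and Cdon, a co-receptor (0.76 and 1.26).

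Of 20 BMP pathway genes, 1 was higher and 3 lower, with medians of 0.0043 and -0.08, and of 13 TGF-beta and activin genes 2 were higher and 1 lower, with medians of -0.13 and -0.07; over all genes tested, 2.97% were higher and 3.87% lower. The BMP antagonist Grem1 was higher (0.98 and 1.48), and the antagonist Nog (-1.01 and -1.57) and the ligand Bmp3 (-2.08 and -2.37) were among those lower. Inhba, the activin A subunit, stood at 83.1 against 51.4 CPM and 79.4 against 38.4 CPM. Ltbp1 was also higher and Tgfb1 lower. In the retinoic acid list of 13, Stra6, a receptor for vitamin A uptake, was higher (0.81 and 0.96), while the synthesis genes Aldh1a2 and Rdh10 and the reductase Dhrs3 were lower. Of 10 genes of the IGF axis, Igfbp3 stood at 119 against 62.6 CPM and 128 against 50 CPM. Its relatives Igfbp5 (199 against 567 CPM and 206 against 491 CPM) and Igfbp2 were lower. In the chemokine list, Cxcl14 stood at 437 against 161 CPM and 387 against 136 CPM, and Cxcl12 had log2 ratios of -0.87 and -0.90.

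Adhesion, guidance and matrix genes showed which surface and matrix products members carried beside the rule genes. Lsamp (33.9 against 9.87 CPM and 30.8 against 6.35 CPM), Ntm (71.7 against 29.2 CPM and 76.1 against 27.9 CPM) and Opcml belong to a family of adhesion molecules anchored by lipid to the membrane. These 3 and Flrt3 were the 4 called higher of 17 adhesion genes (2.97% over all genes), while Negr1, of the same family, and Cdh13 were lower. Of 22 guidance genes, 5 were higher and 4 lower (2.97% and 3.87% over all genes). Bdnf, a neurotrophin, stood at 28.3 against 8.62 CPM and 37.9 against 8.04 CPM, Sema5a had log2 ratios of 1.17 and 1.31 and Nrp1 0.96 and 1.38, and Plxna2, a semaphorin co-receptor, had -1.53 and -1.73. Of 14 ephrins and Eph receptors, Epha3 stood at 26.6 against 93 CPM and 29.3 against 94.9 CPM, and Efna1 was the other lower gene.

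Of 27 matrix genes, 6 were higher and 4 lower (2.97% and 3.87% over all genes). Dcn, the collagen-binding proteoglycan decorin, stood at 189 against 78.8 CPM in the male and 164 against 46.7 CPM in the female library, log2 ratios of 1.26 and 1.81. Fn1, Vcan, Lox, Has2 and Cyr61 were also higher. Ogn, Fmod, Npnt and Tgfbi were lower, with log2 ratios of -1.47 and -1.46 for Tgfbi. Collagens were mostly level, with Col6a1, Col6a2 and Col14a1 higher and Col13a1 and Col25a1 lower of 18. Among relatives of the rule genes, Pcdh19 (0.70 and 0.68) was the 1 higher protocadherin of 6. Matn4 (0.80 and 1.29) was higher, and Spock1 (-1.71 and -2.04), Spock2, Sparcl1 and Smoc1 were lower.

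Since Rprm is known as an inhibitor of the cell cycle downstream of p53, the lists of those processes were read in members. Of 13 genes of the p53 response, 0 were called in either direction, with medians of -0.08 and -0.17. Over all genes tested, 2.97% were higher and 3.87% lower. Cdkn1a, the p21 inhibitor, stood at 5.12 against 3.9 CPM and 5.37 against 4.05 CPM. Of 15 mitosis genes and 15 S phase genes, 0 were called. Lists of 13 to 15 genes are too small for 0 calls to be read against the shares over all genes. All 15 mitosis genes had ratios above 0 in both libraries, with medians of 0.59 and 0.29, and Top2a stood at 614 against 379 CPM and 680 against 521 CPM. With the reference weighted to the members' depth, the medians of the mitosis list were 0.14 and -0.01, and 6 of its genes were above 0 in both libraries. With at most 5% mitochondrial UMIs, all 15 were called higher, against the reference of 182 and 199 cells described above.

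Markers of other cell types were called in both directions. All 7 erythroid and all 3 immune genes measured were lower, where 2.97% of all genes tested were higher and 3.87% lower. The immune list had the lowest medians of all lists (-4.17 and -3.66), on 3 of its 7 genes. C1qb, a complement subunit of macrophages, stood at 1.04 against 20.5 CPM in the male and 0.30 against 9.39 CPM in the female library, and Fcer1g and Tyrobp had log2 ratios between -4.17 and -3.17. Without barcodes of another class, the summed immune level of the reference went from 74.7 and 32.5 CPM to 2.43 and 1.97 CPM, and that of members was 1.64 and 2.20 CPM. Of 4 neuronal genes measured, Tubb3, a neuronal tubulin, stood at 39.1 against 15 CPM and 49.7 against 14.3 CPM. Ret, the receptor of GDNF, had 102 UMIs in members and 6 in the reference of the male library and 113 and 2 in the female library, log2 ratios of 3.65 (2.48 to 5.13) and 4.78 (2.89 to 7.84). The neuronal markers Elavl4 and Snap25 were not called. Among cartilage and tendon genes, Sox9 stood at 43.1 against 83.4 CPM and 43.6 against 84.3 CPM. The smooth muscle genes Myh11 and Des were lower, with log2 ratios between -1.59 and -0.99. Of 3 perineurial genes measured, Cldn1 was higher, at 3.24 against 1.41 CPM and 3.13 against 1.52 CPM. Slc2a1 (-0.17 and 0.01) and Tjp1 (-0.21 and -0.03) were not called, and the sum of the list was 65.1 against 71.9 CPM and 63.1 against 62.1 CPM.

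Irx5 is 1 of the 5 rule genes, so the genes around it were examined within 1.5 Mb of its start. Of 9 neighbours with enough UMIs, 3 were called higher in members, beside 2.97% of all genes. Irx3, at -555.6 kb from the start of Irx5, was the most enriched. Fto, which encodes an RNA demethylase and whose introns are known to hold enhancers that act on Irx3 and Irx5, starts at -1044.1 kb. It stood at 89.9 against 57.8 CPM in the male and 99.9 against 57.3 CPM in the female library. Rpgrip1l, a gene of the ciliary transition zone that starts head to head with Fto, stood at 38.6 against 17.5 CPM and 39.0 against 16.8 CPM, log2 ratios of 1.15 and 1.21. The genes beyond on either side were not called. Aktip had log2 ratios of 0.27 and 0.21, Rbl2 0.06 and -0.14, and Mmp2, a matrix metalloprotease 469.7 kb after the Irx5 start, -0.10 and 0.04. Irx6, 316.7 kb after Irx5, had too few UMIs for a call, with 73 in members against 5 in the reference in the male library and 218 against 8 in the female.

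The same genes were read in comparisons chosen after the values above were seen. In the first, Irx5 played no part in choosing cells. The second kept only cells without an Irx5 UMI, which may still have held uncounted Irx5 RNA. Between cells with 2 or more of the other 4 rule genes and cells with none of them, the log2 ratios were 1.58 and 1.38 for Irx3, 0.79 and 0.84 for Rpgrip1l, and 0.47 and 0.56 for Fto. Irx6 had 0.65 (0.03 to 1.30) and 0.46 (0.08 to 0.86), and Mmp2 had -0.14 and -0.12. Among such cells with no Irx5 UMI at all, Irx3 still had 1.24 (0.91 to 1.57) and 1.25 (0.95 to 1.56), Rpgrip1l 0.32 and 0.49, and Fto 0.19 and 0.35. Mmp2 had -0.19 and -0.21 there, and Irx6, on 5 UMIs in each male group, had 0.32 (-1.80 to 2.44) and -0.61 (-2.56 to 1.19). Irx3 had the largest ratio of these genes in both comparisons.

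The converse was read as well. In cells with Irx5 as their only rule gene, 557 in the male library and 686 in the female, Irx3 stood at 64.4 and 87.7 CPM, about its level in members, against 6.34 and 7.20 CPM in cells with none. The log2 ratios were 3.34 and 3.61 for Irx3, 4.66 (3.25 to 6.39) and 4.98 (3.92 to 6.25) for Irx6, 0.63 and 0.77 for Rpgrip1l, and 0.24 and 0.52 for Fto. Mmp2 had 0.09 (-0.09 to 0.26) and 0.42 (0.27 to 0.56) and Aktip 0.23 (-0.12 to 0.57) and 0.37 (0.06 to 0.67), so in the female library these 2 were also above 0. Irx3 and Irx6 transcripts therefore also accompanied Irx5 in cells that the rule left out. Irx1 and Irx2, of the other Iroquois cluster, had too few UMIs for a call, at 77 against 11 and 158 against 19 UMIs for Irx1 and 49 against 10 and 135 against 16 for Irx2.

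**Figure D4:**
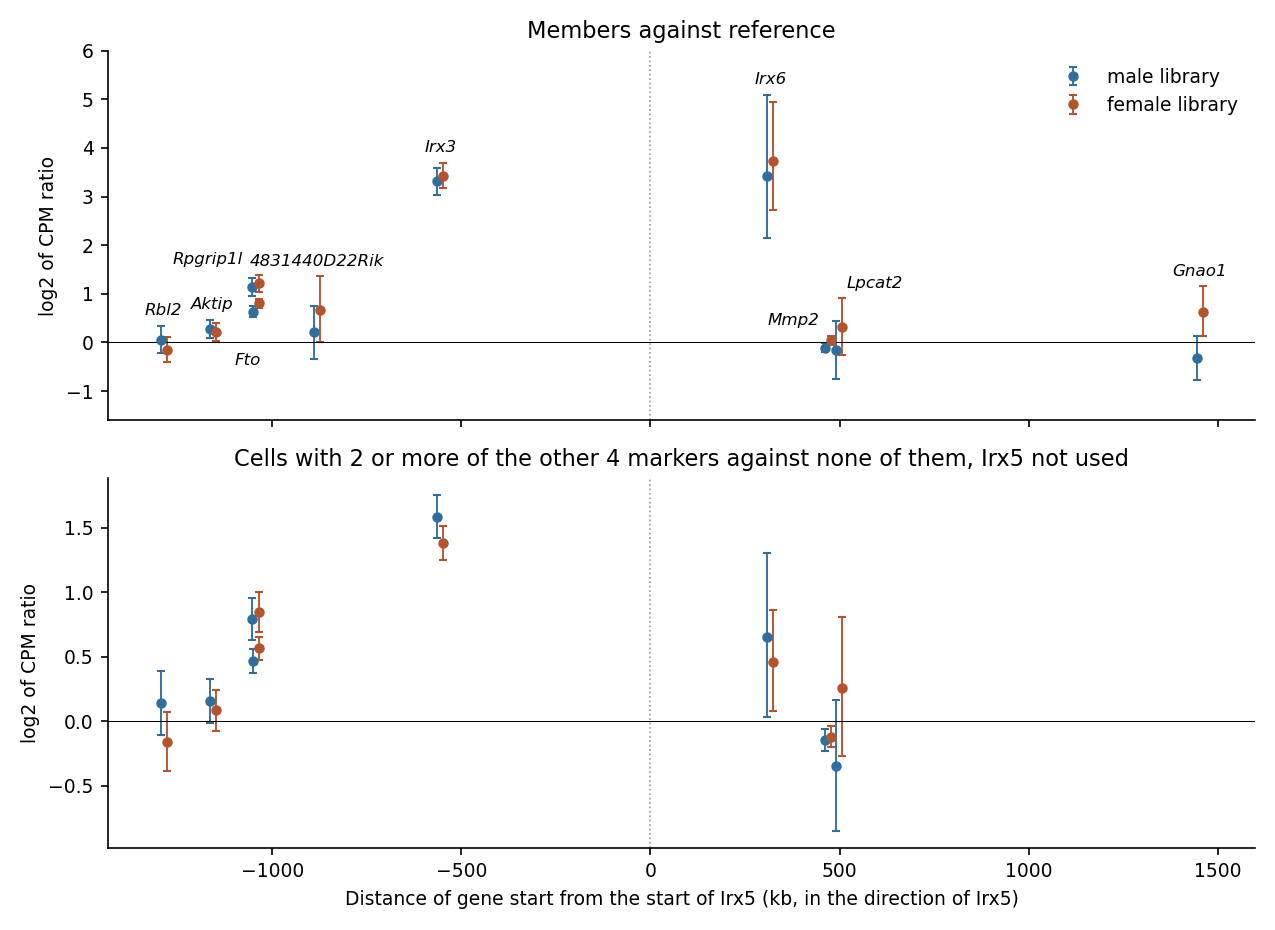
Log2 ratio of CPM (vertical axes) of genes within 1.5 Mb of Irx5 against distance of their start from the Irx5 start in kb (horizontal axis), with 95% counting intervals, for the male and the female library. The upper panel sets members against the reference and the lower panel cells chosen by the other 4 rule genes. Irx3, Rpgrip1l and Fto lie above 0 in both panels, and Mmp2 lies near 0.

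Of 12 genes measured within 1.5 Mb of Matn2, 4 were higher in members, beside 2.97% of all genes: Sdc2, the heparan sulfate proteoglycan syndecan-2 (1.16 and 1.05), Osr2, given above, Tspyl5 (1.07 and 1.14) and Laptm4b (0.64 and 0.66). None of 5 genes near Rprm, 1 near Pcdh10 and 3 near Spock3 was called, numbers too small to be read against 2.97%.

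Members differed among themselves by which rule genes they carried. Members with 3 or 4 markers were divided by each marker in turn and compared by the same limits on fold and interval, with at least 100 UMIs in each library (10079 genes). A member without a given marker holds 3 or 4 of the other 4, so the groups also differ in those, and the genes named here were chosen after their values were seen. Between members with and without Rprm, 91 genes were higher and 145 lower; for Spock3 the numbers were 89 and 51, for Irx5 70 and 78, for Matn2 44 and 34, and for Pcdh10 34 and 23.

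Members without Rprm, 370 in the male library and 361 in the female, were marked by Igf1, the insulin-like growth factor. It stood at 248 and 287 CPM in them, against 54.2 and 58.1 CPM in members with Rprm. Sim1 was also higher without Rprm, at 80.8 against 24.2 CPM and 105 against 35.8 CPM. Alx1 was higher with Rprm, at 47.6 against 18.9 CPM and 51.6 against 19.1 CPM. The largest ratios with Rprm were those of the muscle gene Actc1 (log2 of 4.09 and 5.10) and the globin Hbb-bh1 (3.05 and 4.91). Actc1 was also higher with Irx5 (1.95 and 4.36) and lower with Spock3 (-3.79 and -3.15). These ratios include the barcodes that carried counts of another class. Without those barcodes, the skeletal muscle sum of members, to which Actc1 belongs, went from 25.4 and 25.8 CPM to 4.79 and 5.30 CPM. Whether these transcripts came from the members themselves was not tested.

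Members without Irx5 had more Sox9 and Scx, factors of cartilage and tendon progenitors, than members with it. Sox9 stood at 107 CPM (male) and 95 CPM (female) in them against 28.8 and 35.9 CPM in members with Irx5. Scx, the tendon factor scleraxis, stood at 48.7 against 13.0 CPM and 30.3 against 11.6 CPM. The reference had Sox9 at 83.4 and 84.3 CPM and Scx at 45.4 and 39.7 CPM. In the female library, Scx in members without Irx5 was thus below the reference. Irx3 was higher with Irx5, at 73.0 against 17.3 CPM and 84.3 against 20 CPM. Tbx15 (14.5 against 3.28 CPM and 23.0 against 5.71 CPM) and Sim1 (37.2 against 8.74 CPM and 48.1 against 13.3 CPM) were higher with Irx5 too. Sim1 thus went with detection of Irx5 and against detection of Rprm.

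The other 3 markers divided members along other genes. With Pcdh10, Rgs17 stood at 65.1 against 28.8 CPM and 58.5 against 22.8 CPM, and the related protocadherin Pcdh17 at 38.5 against 18.1 CPM and 42.6 against 17.4 CPM. With Spock3, Msx2 was lower, at 80.2 against 168 CPM and 58.8 against 138 CPM, and Matn4 higher, at 14.2 against 5.40 CPM and 12.5 against 5.56 CPM. With Matn2, the distal factors Sp9 (55.7 against 20.8 CPM and 37.3 against 17.4 CPM) and Dlx5 (87.6 against 44.4 CPM and 76.5 against 39.4 CPM) were higher and Ezr was lower (51.0 against 121 CPM and 59.3 against 131 CPM). Members with Matn2 thus had more of these distal factors, and members with Spock3 had less Msx2.

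Members were placed beside 7 other mesenchymal gene sets, where a cell was counted for a set when it carried 2 or more of its genes. Sim1, Tbx15 and Agtr2 formed the set closest to members. All 3 genes were called higher in members, and 39.7% of the 431 male and 43.2% of the 984 female cells of that set were members. Members were 24.2% and 29.4% of the cells outside it, and after thinning they were 19.9% and 19.1% of the set against 14.4% and 17.9% of all kept cells. The set made up 5.66% of male and 10.6% of female members, so most members lay outside it.

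In the other sets the share of members was lower than in the set of Sim1, Tbx15 and Agtr2. Aldh1a2 and Tcf21 cells were members in 10.2% and 16.1%, the lowest shares of the 7 as counted. Ogn, Foxf1 and Npnt cells were members in 15.7% and 18.6%, Dlx2 and Runx1 cells in 16.1% and 19.1%, Foxd1, Sall3 and Lbx2 cells in 16.8% and 19.9%, and Scx and Sox9 cells in 18.2% and 22.9%. All genes of the Ogn, the Scx and the Aldh1a2 set were called lower in members, as were Sall3 (-1.72 and -1.79) and Lbx2 (-1.91 and -2.13). Foxd1, Dlx2 and Runx1 were not called. Cells of the distal set of Msx2, Msx1 and Dlx5 were members in 25.1% and 29.5%, near the 24.6% and 30.9% of cells outside it. They made up 36.6% and 33.9% of all members, and 36.1% and 34.9% of kept cells. After thinning, members were 11.3% and 13.1% of the distal set, and between 2.03% and 6.91% of the other 5 sets, where Aldh1a2 and Tcf21 were lowest in the male library and Dlx2 and Runx1 in the female (2.09%). None of its genes was called, with Msx1 at 354 against 196 CPM and 320 against 248 CPM.

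Male and female members were compared on summed UMIs, with 1 library each. Of 11625 genes with at least 100 UMIs, 108 (0.929%) were higher by 1.5-fold or more in male and 64 (0.551%) in female members, with the interval clear of 0. Xist, the RNA of the inactive X chromosome, stood at 0.16 CPM in male and 1398 CPM in female members. The summed level of 4 Y-linked genes was 171 CPM in male members and 0.0818 CPM in female members. AY036118 (237 against 74.8 CPM) and Gm42418 (2261 against 1103 CPM) lie on opposite strands of the same stretch of chromosome 17, so their reads may not be separable. Their log2 ratios, 1.67 and 1.04 in members, were 1.57 and 0.96 in the reference.

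Other genes that led in male members had ratios of the same sign in the reference. Hist1h2ap had a log2 ratio of 1.57 in members and 1.46 in the reference, Hist1h2ae 0.90 and 0.67, Gm10076 0.86 and 0.83, and Lars2 0.92 and 0.71. The histone genes have close copies in the genome, so their counts are uncertain. Acta2, smooth muscle actin, stood at 32.8 CPM in male and 18.0 CPM in female members (0.87), and its ratio in the reference was 1.90.

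Female members had more globin transcripts and more of a few signalling genes. Hba-x (-1.25), Hbb-y (-1.02), Hba-a1 (-0.89) and Hba-a2 (-0.66) were lower in male members, and Hba-a1 and Hba-a2 are near-identical copies. Without barcodes that carried counts of another class, these ratios were -0.48, -0.20, -0.33 and -0.21, all within the 1.5-fold limit. Grem1, the BMP antagonist, stood at 27.2 CPM in male and 45.6 CPM in female members, a log2 ratio of -0.74 (-0.87 to -0.61), and in the reference at 13.8 and 16.3 CPM (-0.24). Enpp2, which makes lysophosphatidic acid, stood at 89.2 and 139 CPM in members (-0.64) and had -0.19 in the reference. Gm47283, which the annotation places on chromosome Y but which was counted in both libraries, had -0.97, and the noncoding AC160336.1 had -0.64. Whether the sex ratios of Grem1 and Enpp2 differ between members and reference was not tested, since each sex has 1 library.

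Sex ratios of list genes were read in members as well. Of the 4 Iroquois genes with enough UMIs for this comparison, 2 were higher in female members. These were Irx6 (-1.02, on 73 male and 218 female UMIs) and Irx2 (-0.91, on 49 and 135). In the reference both were also lower in the male library. Irx6 stood there at 0.27 against 0.45 CPM (5 and 8 UMIs) and Irx2 at 0.54 against 0.90 CPM (10 and 16 UMIs). Tbx15 was higher in female members (-0.69, and -0.57 in the reference) and Dlx2 in male members (0.76, and -0.02 in the reference). Of 23 Wnt, 15 FGF and 14 Hedgehog pathway genes, 0 passed the limit, beside 0.929% and 0.551% of all genes. Of 9 genes known to respond to androgen in the tubercle, 0 passed it. Lists of 9 to 23 genes are too small for 0 calls to be read against the shares over all genes. Of 7 genes of steroid receptors and enzymes, Esr1, an oestrogen receptor, was higher in male members (0.86, and 0.05 in the reference). That ratio rested on 58 male and 47 female UMIs.

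**Figure D5:**
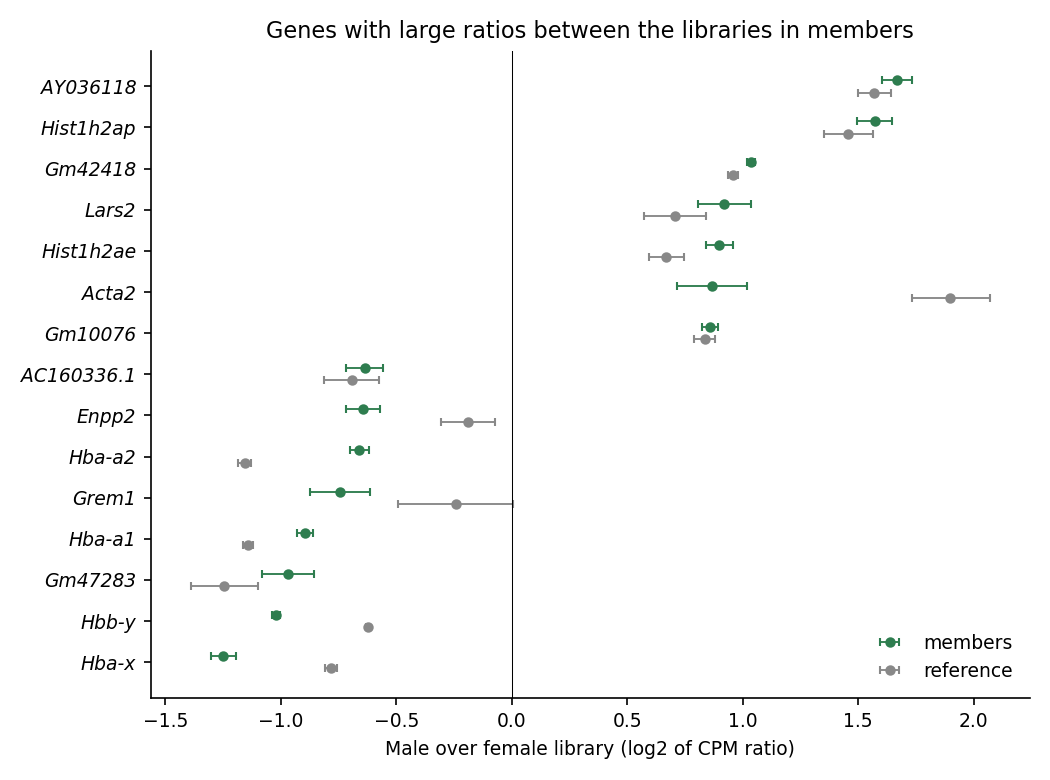
Log2 ratio of CPM, male over female library (horizontal axis), of genes with large ratios in members (1 row each), in members (green) and in the reference (grey), with 95% counting intervals as bars. AY036118, Hist1h2ap and Gm42418 have ratios of 1.67, 1.57 and 1.04 in members and 1.57, 1.46 and 0.96 in the reference, and Acta2 has 0.87 and 1.90.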

How the data were processed

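Droplet single-cell libraries were made from dissociated genital tubercles, 1 per sex. The authors deposited unfiltered UMI counts per gene and barcode, made with Cell Ranger 3.1 on mm10 per the submitters' processing notes; filters applied before deposit are not given in the sources used here. Barcodes were filtered by the limits in the report, summed per library and scaled to CPM (per 1000000 UMIs). Ratios have exact conditional Poisson intervals and shares exact Clopper-Pearson intervals at 95%; both cover counting error only. With 1 library per sex there are no replicates, so no test was made. Gene positions came from GENCODE M21 and promoter windows from RefSeq GRCm38.p6.

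The members and gene lists were chosen with earlier results of these data known. Named genes were the 12 highest and 12 lowest called ratios with at least 200 UMIs and 20 CPM, the 8 highest and 8 lowest male over female ratios with at least 30 CPM, and up to 4 genes per list; a few of these are not reported here. Further list genes are named because they were called, a choice made with the values in view. Doublets were not removed in the values reported; Scrublet's automatic threshold marked 0% of barcodes, so an alternative removed the highest scores at 0.8% per 1000 barcodes. The scripts used Python 3.11.15, numpy 2.4.6, scipy 1.17.1 and scanpy 1.11.5, and were tested on simulated data. Alternative limits on depth, mitochondrial share, markers, reference, counts and fold were run.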

Additional observations from a re-analysis of the deposited data

How the results depend on the processing

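The share of members followed the limits of the rule. It was 21.0% (male) and 25.4% (female) at 2000 UMIs, 32.1% and 37.7% at 6000 UMIs, 46.9% and 52.7% with 2 or more markers, 9.65% and 13.2% with 4 or more, 14.4% and 17.9% after thinning, and 22.7% and 27.9% without the highest doublet scores. That removal took 17.2% and 18.0% of members and 3.73% and 3.16% of the reference. With at most 5% mitochondrial UMIs the male share was 28.8%, with 664 genes higher and 59 lower in members, on 244 and 247 members. At 6000 UMIs 283 genes were lower, and against all kept cells outside the rule 123 were higher. With at least 20 UMIs per gene, 715 genes were lower in members, 249 were higher in male and 124 in female members. With at least 500 UMIs, 180 were higher and 157 lower in members, and 28 were higher in male and 17 in female members. At a 2-fold limit these numbers were 128, 181, 15 and 8. After thinning, 67 genes were higher in male members. The share of members among a member's neighbours was 44.9% and 52.5% at 2000 UMIs. Over the 24 named genes, 342 of the values of members over reference kept their direction and call, and 15 lost the call. Of these, 12 were at 5% mitochondrial UMIs, where Foxf1 had -1.79 and the libraries gave Tcf21 opposite signs, and 3 were the embryonic globins without barcodes of another class. Of the sex ratios of 16 named genes, 179 values kept their call and 23 lost it. The ratio of Acta2 was -0.27 at 5% mitochondrial UMIs, and that of Hba-a2 was 0.090 after thinning, each reversed. The cause of these changes was not tested. The 5 held-out marker ratios kept direction and call under the alternatives run. No paired analysis was possible because each sex has 1 library.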
